A study of Mus musculus with 12 samples.

Results

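The nuclear-encoded genes of oxidative phosphorylation were examined in RNA sequencing of mouse liver. Rows of the count table were taken as members by symbol alone: those starting with Nduf, Uqcr, Atp5, Cox4i, Cox5, Cox6, Cox7 or Cox8, and Sdha, Sdhb, Sdhc, Sdhd, Cyc1 and Cycs. This gave 86 of 15846 rows, with 85 distinct symbols, since Ndufb8 has 2 rows. Of the 86, 77 encode subunits of complexes I to V (37, 4, 9, 13 and 14 respectively). The other 9 are the complex I assembly factors Ndufaf1 to Ndufaf4, the soluble electron carrier cytochrome c (Cycs), the supercomplex factor Cox7a2l, the Ndufa4 paralog Ndufa4l2, and Atp5s and Atp5sl. A filter on low counts left 84 members for testing, and removed Atp5l and Cox6b2.

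The livers came from 12 mice of strain C57BL/6 aged 5 months, in 4 groups of 3: wild type (WT) on chow, hepatocyte Shp knockout on chow, WT on the diet labelled HFCF, and knockout on HFCF. The knockout is labelled Shp Hep-/- and is called KO here; the Cre driver is not given in the sources used here. Shp is the nuclear receptor Nr0b2, a transcriptional corepressor without a DNA-binding domain. Libraries held 13967116 to 18324134 counts.

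Oxidative phosphorylation takes place in the inner mitochondrial membrane. Complexes I and II pass electrons from NADH and succinate to ubiquinone, complex III passes them to cytochrome c, and complex IV passes them to oxygen. Complexes I, III and IV pump protons, and complex V, the ATP synthase, uses the gradient to make ATP. Most subunits are encoded in the nucleus and imported, and a small core is encoded by mitochondrial DNA. In liver this ATP pays for gluconeogenesis, urea synthesis and lipid export, and the chain reoxidises the carriers reduced by fatty acid oxidation.

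The label was checked on Nr0b2 itself, which stood at 34.3 ± 13.7 CPM in WT and 0.778 ± 0.228 CPM in KO livers on chow, and at 50.2 ± 2.96 against 0.371 ± 0.151 CPM on HFCF (SD, n = 3). CPM is a count relative to library size, after scaling with edgeR's TMM factors, so that values of different livers can be compared, and ± after CPM or FPKM is the SD of 3 livers throughout. KO against WT gave a log2 fold change of -5.44 ± 0.32 on chow, with an edgeR adjusted p of 1.7e-07. On HFCF it gave -7.05 ± 0.35, with an edgeR adjusted p of 3.37e-08. Here and below, ± after a log2 fold change is the standard error of edgeR's quasi-likelihood fit. P-values were adjusted by Benjamini-Hochberg across the 14736 tested genes, and a gene was called where the adjusted p was below 0.05.

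The nuclear-encoded genes of the chain were lower in KO than in WT livers on both diets, and members of each of the 5 complexes fell. Summed over the 84 tested members, the level was 11820, 12520 and 12890 CPM in the WT chow livers and 10350, 9337 and 10090 CPM in the KO chow livers. On HFCF it was 13310, 12640 and 11420 CPM in WT and 10170, 9788 and 9715 CPM in KO. All 6 KO livers lay below all 6 WT livers. Without any scaling, the members took 1.23% ± 0.0451 of all counts in WT and 1.01% ± 0.07 in KO on chow, and 1.26% ± 0.085 against 0.963% ± 0.0178 on HFCF. These sums are dominated by a few abundant genes, so the members were also compared 1 by 1.

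On chow, 44 of the 84 tested members fell in KO and 0 rose by the edgeR test, where 5.82% of all tested genes were called lower and 9.72% higher. On HFCF, 47 fell and 0 rose, against 8.52% of all tested genes lower and 10.6% higher. Among the 8066 tested genes that averaged 10 CPM or more, 9.1% were called lower and 7.25% higher on chow. On HFCF these shares were 12.3% and 9.96%. At an unadjusted edgeR p under 0.05, 63 members were lower and 0 higher on each diet. Of all 14736 tested genes, 1972 were lower and 2504 higher on chow, and 2136 lower and 2496 higher on HFCF. The median log2 fold change of the members was -0.28 on each diet, with quartiles of -0.35 and -0.21 on chow and of -0.36 and -0.20 on HFCF. A log2 fold change of that size is a level 17.4% lower on chow and 17.7% lower on HFCF. The median over all tested genes was 0.00 and 0.02, and over the 8066 tested genes that averaged 10 CPM or more it was -0.05 and -0.02. Below 0 stood 82 of the 84 members on chow and 80 on HFCF.

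The counts on chow changed with the libraries used: 16 to 54 members were called lower when 1 library was left out, which also leaves fewer livers to test. The low counts were 16 without WT chow replicate 3, 18 without KO chow replicate 2, and 28 without WT chow replicate 2 or KO chow replicate 3. On HFCF the count ran from 28 to 55, with 28 without WT HFCF replicate 1 and 30 without WT HFCF replicate 2. The median log2 fold change moved less, from -0.33 to -0.24 on chow and from -0.36 to -0.25 on HFCF over the same omissions.

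**Figure D1:**
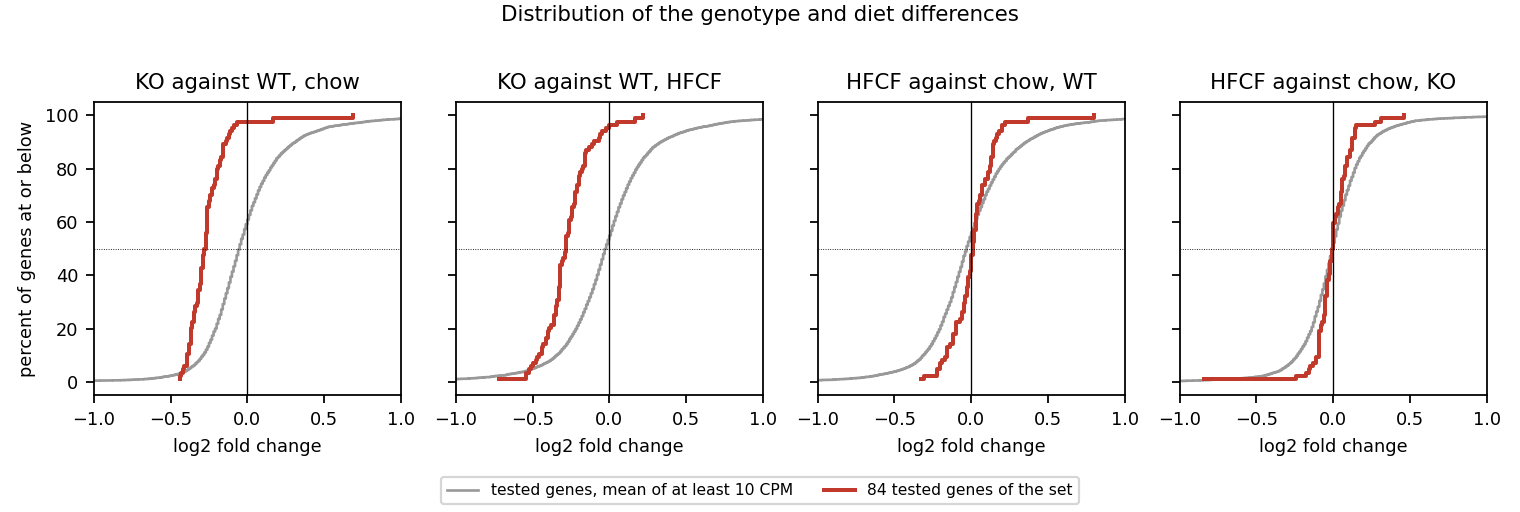
Cumulative percent of genes (vertical axis) at or below each log2 fold change (horizontal axis) for the 84 tested members and for the 8066 tested genes that averaged 10 CPM or more, in 4 comparisons. The member curve lies to the left of the other in both genotype comparisons (median -0.28 each) and crosses 50% near 0 in both diet comparisons. The axes end at 1 on either side.

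The genotype comparisons on the 2 diets share no library and are set side by side. Both came from the same fit of all 12 libraries, with a shared estimate of the spread, so their calls are not independent. Of the members, 35 were called lower on both diets, which is 79.5% of those called on chow and 74.5% of those called on HFCF. Over all tested genes 2.91% were called lower on both. Another 9 were called on chow alone, 12 on HFCF alone and 28 on neither. All KO livers lay below all WT livers for 61 members on chow, where this held for 16.8% of all tested genes. On HFCF this held for 57 members, against 15.7% of all tested genes. Across both diets all 6 KO livers lay below all 6 WT livers for 43 members, against 4.27% of all tested genes. Among the 8066 tested genes that averaged 10 CPM or more, KO livers lay below WT livers for 1989 on chow and 1722 on HFCF. Across both diets this held for 538 of them. Across the 84 members, the log2 fold changes on chow and HFCF had a Pearson correlation of 0.53 and a Spearman correlation of 0.58; the points share livers and are given as a description.

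**Figure D2:**
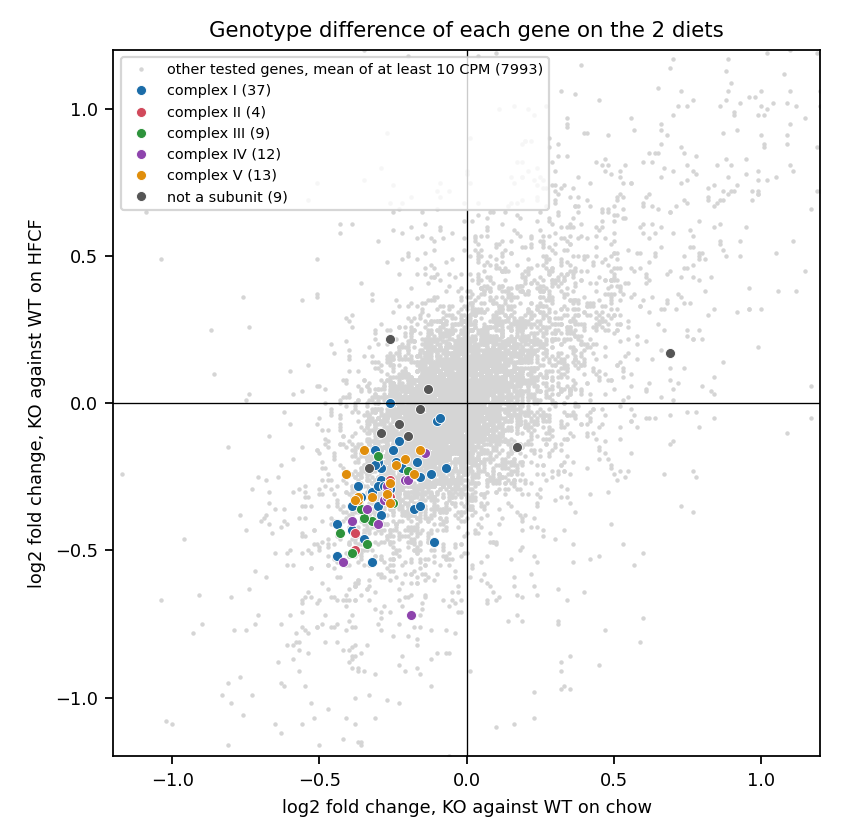
Log2 fold change of KO against WT on chow (horizontal) and on HFCF (vertical), 1 point per gene; coloured points are the 84 tested members by complex and grey points the other 7993 tested genes that averaged 10 CPM or more. Of the members, 79 of 84 lie to the lower left, below 0 on both diets. The axes end at 1.2 on either side, which leaves 173 of the grey genes outside.

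The interaction of genotype and diet, which tests whether the genotype difference itself changed with diet, was called for 0 members by edgeR, and 0.794% of all tested genes were called. At an unadjusted edgeR p under 0.05 there were also 0 members, where 842 of the 14736 tested genes were above 0 and 1103 below. The lowest unadjusted edgeR p of a member was 0.0582. The median 95% interval of the interaction ran from -0.27 to 0.26 on the log2 scale, and 73 of 84 intervals lay within 0.5 of 0, but only 5 lay within 0.25. The median standard error of the interaction was 0.13, beside a median genotype difference of -0.28 on each diet. For single genes, a change of that size or smaller could therefore be missed.

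No member was called for diet. HFCF against chow gave 0 called members in WT livers, where 13.7% of all tested genes were called, and 0 in KO livers, where 2.65% were. At an unadjusted edgeR p under 0.05, 4 members were higher and 5 lower in WT, and 2 higher and 1 lower in KO. Among all 14736 tested genes, 2237 were higher and 1979 lower in WT, and 1413 higher and 1218 lower in KO. The median log2 fold change was 0.01 in WT, with quartiles of -0.06 and 0.09. The 95% interval lay within 0.25 of 0 for only 36 of 84 members in WT and 35 in KO. It lay within 0.5 of 0 for 78 of 84 members in each genotype. The exceptions in size were genes of low count, such as Cox7a1, the heart and muscle form of a complex IV subunit, at -0.84 ± 0.39 in KO (edgeR adjusted p = 0.273). In WT the widest was Ndufa4l2, also of low count, at 0.80 ± 0.33 (edgeR adjusted p = 0.134), and the sizes included Ndufs5 at 0.37 ± 0.14 (edgeR adjusted p = 0.0984) and Ndufab1, the mitochondrial acyl carrier protein, at -0.33 ± 0.12 (edgeR adjusted p = 0.0829). DESeq2 called Sdha higher on HFCF in WT (0.19, adjusted p = 0.0405). Without WT HFCF replicate 3, the WT HFCF liver with the lowest member sum, edgeR called 3 members higher: Cox8a, Ndufa10 and Ndufb3.

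Since the members fell together, the letters just upstream of their genes were read from RefSeq windows on build GRCm38, each 300 bases long, from 250 before to 50 after a gene's start. Of the 85 symbols, 72 had a window. The letters searched, on both strands and counting overlaps once, were CGCATGCG (core of the NRF1 site), CCGGAAGT (bound by ETS factors such as GABP), AAGATGGC (YY1) and AAGGTCA (site of a single estrogen-related receptor). NRF1 and GABP are known as regulators of respiratory chain genes. CGCATGCG was in the windows of 10 of the 72 member genes (13.9%), against 4.14% of 9611 genes with a tested symbol and 2.07% of all 27025 genes with a window. AAGATGGC was in 11 (15.3%), against 4.92% and 3.19%. AAGGTCA was in 8 (11.1%), against 4.25% and 5.38%, and CCGGAAGT in 5 (6.94%), against 8.32% and 4.31%. At least 1 of the 4 was found in 9 of the 25 matched genes called lower on both diets (36.0%) and in 21 of the other 47 (44.7%). The shares are descriptions, and a match is not evidence of binding.

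A window for each complex is shown, from members called lower on both diets that hold a match, to let the position of the letters be seen against the start. The matches are in capitals, each window runs 5′ to 3′ along the gene's own strand, and the choice was made after the values were seen. The windows are Ndufa9 at chr6:126849095-126849394, Sdhd at chr9:50603800-50604099, Uqcr11 at chr10:80406772-80407071, Cox8a at chr19:7217567-7217866 and Atp5k at chr5:108434350-108434649, all on the minus strand.
Ndufa9: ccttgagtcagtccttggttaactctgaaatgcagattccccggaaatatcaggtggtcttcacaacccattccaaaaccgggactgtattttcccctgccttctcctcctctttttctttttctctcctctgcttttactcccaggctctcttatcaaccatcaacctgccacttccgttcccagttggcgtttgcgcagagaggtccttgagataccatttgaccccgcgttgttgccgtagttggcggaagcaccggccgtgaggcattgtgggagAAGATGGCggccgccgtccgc
Sdhd: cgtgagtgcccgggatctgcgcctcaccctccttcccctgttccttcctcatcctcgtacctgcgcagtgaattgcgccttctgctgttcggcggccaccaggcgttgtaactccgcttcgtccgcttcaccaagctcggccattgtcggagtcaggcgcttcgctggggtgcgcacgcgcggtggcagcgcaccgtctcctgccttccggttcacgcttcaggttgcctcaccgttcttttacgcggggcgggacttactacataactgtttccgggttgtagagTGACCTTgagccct
Uqcr11: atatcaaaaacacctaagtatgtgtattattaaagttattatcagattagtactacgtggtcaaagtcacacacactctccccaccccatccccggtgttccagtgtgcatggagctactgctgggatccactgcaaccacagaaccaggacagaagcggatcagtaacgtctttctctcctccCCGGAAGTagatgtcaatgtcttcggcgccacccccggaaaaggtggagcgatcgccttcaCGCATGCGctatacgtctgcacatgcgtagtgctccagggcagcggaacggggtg
Cox8a: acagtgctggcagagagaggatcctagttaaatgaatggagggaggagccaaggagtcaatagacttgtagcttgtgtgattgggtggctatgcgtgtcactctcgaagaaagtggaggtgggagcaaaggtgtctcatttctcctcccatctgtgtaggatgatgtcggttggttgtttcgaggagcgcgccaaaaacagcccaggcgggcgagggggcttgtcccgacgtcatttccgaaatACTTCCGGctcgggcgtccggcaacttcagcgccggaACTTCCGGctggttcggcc
Atp5k: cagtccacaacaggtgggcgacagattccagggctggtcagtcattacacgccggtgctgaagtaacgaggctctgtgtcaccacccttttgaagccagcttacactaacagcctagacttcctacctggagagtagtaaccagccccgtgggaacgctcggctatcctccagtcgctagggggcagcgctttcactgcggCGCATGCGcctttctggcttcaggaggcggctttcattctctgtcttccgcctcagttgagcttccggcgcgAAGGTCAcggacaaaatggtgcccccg
In Ndufa9 the YY1 letters begin 30 bases into the transcribed part, and in Sdhd the reverse complement of AAGGTCA begins at 37. Uqcr11 holds the ETS letters 66 bases and the NRF1 letters 5 bases before the start. Cox8a holds the reverse complement of the ETS letters at 2 places, 6 bases before and 32 bases into the gene. Atp5k holds the NRF1 letters 49 bases before the start and AAGGTCA 24 bases into the gene.

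Complex I, the NADH dehydrogenase, has the most members. Summed over its 37 nuclear-encoded rows, the level was 3201 ± 117 CPM in WT and 2579 ± 104 CPM in KO on chow, and 3215 ± 257 against 2594 ± 66.4 CPM on HFCF. On chow 20 of 37 fell and on HFCF 23 of 37 fell, with 0 higher on either diet. The median log2 fold changes were -0.29 and -0.28. All 37 stood below 0 on chow.

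Among the nuclear-encoded core subunits are those that carry the flavin and the iron-sulfur clusters. Ndufv1 (chr19:4007496-4012806), which binds NADH and the flavin, read 194, 214 and 221 CPM in WT and 157, 155 and 167 CPM in KO livers on chow. The HFCF livers read 223, 218 and 185 CPM in WT and 165, 148 and 151 CPM in KO. The groups did not overlap on either diet, and the log2 fold changes were -0.39 ± 0.09 (edgeR adjusted p = 0.00906) and -0.43 ± 0.09 (edgeR adjusted p = 0.00379). Ndufs1, the largest iron-sulfur subunit, gave -0.36 ± 0.09 and -0.32 ± 0.09 and was called on each diet. Ndufs7 was called on chow (-0.31 ± 0.09) and read -0.21 ± 0.09 on HFCF, where it was not called. Ndufs3, Ndufv2 and Ndufs8 were not called on either. Ndufs1 lost its chow call when KO chow replicate 2 was omitted (0.0585 by edgeR, adjusted p) and its HFCF call when WT HFCF replicate 1 was (0.0593). The call of Ndufs7 was lost without any 1 of KO chow replicates 1 and 2 and WT chow replicates 2 and 3 (edgeR adjusted p up to 0.116). Ndufs8, an iron-sulfur subunit, was among the flattest of all subunits, at -0.09 ± 0.09 on chow and -0.05 ± 0.09 on HFCF, with 95% intervals of -0.28 to 0.11 and -0.25 to 0.14.

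Among the 30 accessory rows, which surround the core and are needed for its assembly and stability, 16 fell on chow and 20 on HFCF. Ndufa10 (chr1:92439009-92473860) read 173, 180 and 178 CPM in WT and 136, 120 and 136 CPM in KO livers on chow. On the other diet the values were 222, 204 and 186 CPM in WT and 148, 142 and 138 CPM in KO. Every KO liver was below every WT liver across both diets, and the log2 fold changes were -0.44 ± 0.08 (edgeR adjusted p = 0.00298) and -0.52 ± 0.08 (edgeR adjusted p = 0.000588). Ndufb9 (chr15:58933809-58939489), a subunit of the membrane arm, read 229, 235 and 256 CPM in WT and 180, 173 and 178 CPM in KO on chow. Under HFCF feeding it stood at 223, 233 and 208 CPM against 174, 165 and 159 CPM. Its groups were also apart across both diets, with log2 fold changes of -0.44 ± 0.07 (edgeR adjusted p = 0.00189) and -0.41 ± 0.07 (edgeR adjusted p = 0.00167).

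Ndufa9, whose window is shown above, gave -0.37 ± 0.07 and -0.33 ± 0.07, and Ndufb11 -0.37 ± 0.07 and -0.28 ± 0.07; both were called on each diet. The 2 Ndufb8 rows overlap on chromosome 19 on the same strand, so their reads cannot be told apart. They gave -0.35 ± 0.07 and -0.46 ± 0.07 (ENSMUSG00000025204) and -0.32 ± 0.09 and -0.54 ± 0.09 (ENSMUSG00000091471), called on both diets. The chow call of ENSMUSG00000091471 was lost in 5 of the 12 omissions (edgeR adjusted p up to 0.116). Called lower on both diets as well were Ndufa1, Ndufa3, Ndufa6, Ndufb5, Ndufb10, Ndufc2 and Ndufv3. When 1 library at a time was omitted, Ndufb5 alone of these kept its chow call in all 12 omissions. The chow call of Ndufa1 was lost in 7, of Ndufv3 in 5, of Ndufa3, Ndufa6 and Ndufc2 in 4 each and of Ndufb10 in 3 (edgeR adjusted p up to 0.129). On HFCF Ndufa3 was lost in 7 of the 12, and the others in 1 to 3 (up to 0.15). Ndufa2, Ndufb2 and Ndufb7 were called on chow alone, and Ndufa5, Ndufa13, Ndufb3, Ndufb6, Ndufc1, Ndufs5 and Ndufs6 on HFCF alone. Of these, Ndufb6 and Ndufc1 kept the call in all 12 omissions. Ndufa13 lost it in 9, Ndufa2 in 7, Ndufa5 and Ndufb7 in 6, Ndufb2 in 5, Ndufb3 in 4, Ndufs5 in 3 and Ndufs6 in 1 (edgeR adjusted p up to 0.166). Ndufa7, Ndufa8, Ndufa11, Ndufa12, Ndufab1, Ndufb4 and Ndufs4 were called on neither. Ndufa8 was flat, at -0.10 ± 0.08 and -0.06 ± 0.08. Ndufab1 read -0.26 ± 0.12 on chow and 0.00 ± 0.12 on HFCF, at a mean of only 13.9 ± 1.18 CPM in WT chow livers.

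Complex II, succinate dehydrogenase, is encoded wholly in the nucleus and is also an enzyme of the TCA cycle. All 4 subunits fell on both diets. Sdha (chr13:74322253-74350280), the catalytic flavoprotein, read 556, 572 and 568 CPM in WT and 461, 409 and 429 CPM in KO livers on chow. The values on HFCF were 662, 643 and 611 CPM in WT and 451, 462 and 445 CPM in KO. The lowest WT liver stood at 556 and the highest KO liver at 462 CPM. The log2 fold changes were -0.38 ± 0.07 (edgeR adjusted p = 0.00398) and -0.50 ± 0.07 (edgeR adjusted p = 0.000436). Sdhb, the iron-sulfur subunit, gave -0.38 ± 0.08 and -0.44 ± 0.08. The membrane anchors that hold the ubiquinone site were called as well, Sdhc at -0.26 ± 0.07 and -0.32 ± 0.07, and Sdhd at -0.26 ± 0.08 on both. Both anchors were less secure: the chow call of Sdhc was lost without KO chow replicate 2 or WT chow replicate 1 or 3 (edgeR adjusted p up to 0.088). Sdhd lost its chow call without KO chow replicate 2 or 3 or WT chow replicate 2 or 3 (up to 0.152), and its HFCF call without KO HFCF replicate 1 or 3 or WT HFCF replicate 1 (up to 0.11).

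**Figure D3:**
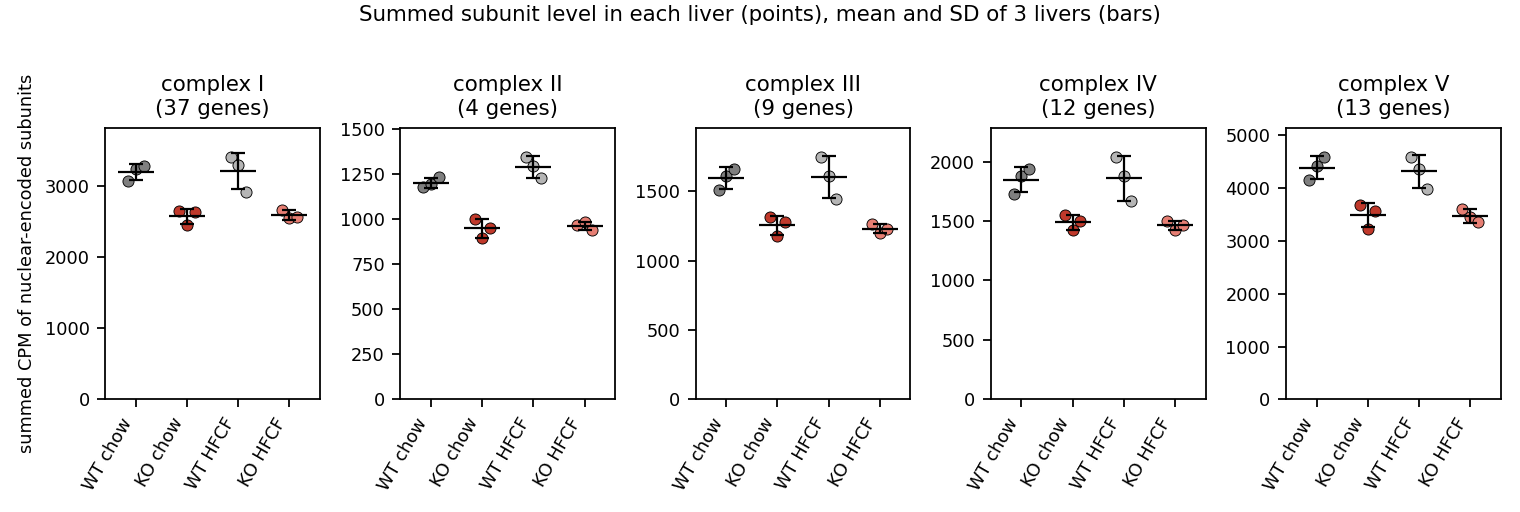
Summed CPM of the tested nuclear-encoded subunits of each complex (vertical axes, from 0) in each of the 12 livers (points), with the mean and SD of 3 livers per group. In complex I the KO groups average 2579 and 2594 CPM against 3201 and 3215 CPM in WT, and the other complexes show the same order.

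Complex III, the cytochrome bc1 complex, fell in 7 of its 9 nuclear-encoded members on each diet, with median log2 fold changes of -0.34 and -0.39. Uqcrc1 (chr9:108936647-108949640), a core protein on the matrix side, read 251, 280 and 277 CPM in WT and 205, 187 and 206 CPM in KO livers on chow. On HFCF it read 301, 292 and 255 CPM in WT and 210, 193 and 219 CPM in KO. Its log2 fold changes were -0.43 ± 0.09 (edgeR adjusted p = 0.00515) and -0.44 ± 0.09 (edgeR adjusted p = 0.00296). Uqcr11 (chr10:80402996-80406830), a small membrane subunit whose window is shown above, read 135, 138 and 149 CPM in WT and 110, 102 and 110 CPM in KO on chow. On the other diet the values were 162, 144 and 128 CPM against 102, 96 and 106 CPM. For both genes the groups were apart across both diets. Uqcr11 gave -0.39 ± 0.09 (edgeR adjusted p = 0.00832) and -0.51 ± 0.09 (edgeR adjusted p = 0.000997).

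The nuclear-encoded electron-carrying subunits of complex III were called on both diets. The Rieske iron-sulfur protein Uqcrfs1 gave -0.36 ± 0.08 on each, and the heme protein cytochrome c1, Cyc1, gave -0.32 ± 0.09 and -0.40 ± 0.09. The chow call of Cyc1 was lost without any 1 chow library other than KO replicate 1 (edgeR adjusted p up to 0.13), and its HFCF call was kept in every omission. Uqcrc2 and Uqcr10 were also called on both. On chow Uqcr10 was lost in 8 of the 12 omissions of 1 library (edgeR adjusted p up to 0.173) and Uqcrc2 without WT chow replicate 3 (0.051). The hinge protein gene Uqcrh was called on chow alone and Uqcrq on HFCF alone. They were lost in 2 and 4 of the 12 omissions (up to 0.0692 and 0.14). Uqcrb, at -0.20 ± 0.13 and -0.23 ± 0.13, was called on neither and has 3 near-identical pseudogenes.

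Complex IV, cytochrome c oxidase, had 4 of 12 tested subunits lower on chow and 7 of 12 on HFCF, and all 12 stood below 0 on both. The 4 called on both were Cox4i1, Cox6c, Cox8a and Ndufa4. Cox4i1 (chr8:120668289-120674209), the widely expressed isoform of subunit 4, read 414, 434 and 450 CPM in WT and 327, 331 and 332 CPM in KO livers on chow. Under HFCF feeding its values were 437, 404 and 375 CPM in WT and 305, 308 and 305 CPM in KO. KO livers of both diets lay below all WT livers, with log2 fold changes of -0.39 ± 0.08 (edgeR adjusted p = 0.00402) and -0.40 ± 0.08 (edgeR adjusted p = 0.00223). Cox8a (chr19:7215157-7217616), the liver form of a small membrane subunit, read 105, 123 and 120 CPM in WT and 87.5, 86.9 and 85.7 CPM in KO on chow. The values on HFCF were 144, 133 and 101 CPM against 85.1, 84.8 and 89.7 CPM. The log2 fold changes of Cox8a were -0.42 ± 0.11 (edgeR adjusted p = 0.0193) and -0.54 ± 0.11 (edgeR adjusted p = 0.00341). Its chow call was at the threshold or lost without any 1 chow library other than WT replicate 1 (edgeR adjusted p up to 0.0743).

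Ndufa4, once counted with complex I and now placed in complex IV, gave -0.34 ± 0.08 and -0.36 ± 0.08. Its chow call was lost without KO chow replicate 2 or WT chow replicate 3 (edgeR adjusted p up to 0.0587). Its paralog Ndufa4l2 was near the floor of detection, at 0.494 ± 0.076 CPM in WT and 0.80 ± 0.0739 CPM in KO on chow, and was not called. Cox5a, Cox5b and Cox6a1 were called on HFCF alone; on chow Cox6a1 missed the threshold narrowly (-0.28 ± 0.09, edgeR adjusted p = 0.0513). Cox6b1, Cox7a2, Cox7b, Cox7c and Cox7a1 were called on neither. Among the calls, Cox6c was lost on chow in 4 of the 12 omissions of 1 library (edgeR adjusted p up to 0.106). On HFCF Cox5a was lost in 5, Cox6a1 in 3 and Cox5b in 1 of the 12 (up to 0.111). The estimate for Cox7a1 on HFCF was -0.72 ± 0.39 (edgeR adjusted p = 0.235). Cox7a2, the liver form, gave -0.20 ± 0.11 and -0.26 ± 0.11. It stood at 154 ± 12.8 CPM in WT chow livers and Cox7a1 at 1.22 ± 0.341 CPM. Cox6b2, a testis form, held at most 0.566 CPM in any liver.

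Complex V fell in 8 of 13 tested subunits on chow and 6 of 13 on HFCF, with a median log2 fold change of -0.27 on each. In the catalytic head, 3 of 5 were called on each diet. The alpha subunit Atp5a1 (chr18:77773728-77782869) read 1330, 1340 and 1430 CPM in WT and 1100, 987 and 1080 CPM in KO livers on chow. The HFCF livers read 1490, 1380 and 1280 CPM in WT and 1150, 1090 and 1060 CPM in KO. The beta subunit Atp5b (chr10:128083272-128090391), which holds the catalytic site, read 1420, 1610 and 1610 CPM against 1310, 1140 and 1260 CPM on chow. On HFCF it read 1560, 1530 and 1370 CPM against 1220, 1190 and 1160 CPM. The groups were apart on each diet for both genes.

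Atp5a1 gave -0.37 ± 0.08 (edgeR adjusted p = 0.0104) and -0.33 ± 0.08 (edgeR adjusted p = 0.0133), and Atp5b -0.32 ± 0.09 on each diet (edgeR adjusted p = 0.0266 and 0.0223). The gamma subunit Atp5c1, the rotating shaft, gave -0.37 ± 0.09 and -0.32 ± 0.09. Without WT chow replicate 3 the adjusted p on chow was 0.0501 for Atp5a1, 0.0997 for Atp5b and 0.0567 for Atp5c1. Atp5b was also lost without KO chow replicate 2 or 3 or WT chow replicate 2 (edgeR adjusted p up to 0.104) and Atp5c1 without KO chow replicate 2 (0.055). On HFCF both were lost without WT HFCF replicate 1 or KO HFCF replicate 3, and Atp5b also without WT HFCF replicate 2 (up to 0.0708). Atp5d and Atp5e, the other head subunits, were not called. In the membrane part and stalk, 5 of 8 tested fell on chow and 3 on HFCF: Atp5f1 and Atp5k on both, Atp5h, Atp5j and Atp5o on chow alone and Atp5g3 on HFCF alone. Atp5o kept its call in all 12 omissions of 1 library. On chow Atp5f1 and Atp5j were lost in 6 each, Atp5h in 3 and Atp5k in 2 of the 12 (edgeR adjusted p up to 0.17). On HFCF Atp5f1 and Atp5k were lost in 3 each and Atp5g3 in 2 (up to 0.0722). Atp5o, the stalk subunit at the top of the head, gave -0.41 ± 0.09 on chow (edgeR adjusted p = 0.00761) and -0.24 ± 0.09 with HFCF (edgeR adjusted p = 0.0741). Atp5g1 and Atp5g3 encode the same mature ring subunit, and in WT chow livers Atp5g3 stood at 121 ± 7.74 FPKM and Atp5g1 at 1.81 ± 0.249 FPKM. The deposited lengths behind these values were 2181 bases for Atp5g3 and 4908 bases for Atp5g1. Atp5j2 and Atp5g1 were called on neither diet.

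**Figure D4:**
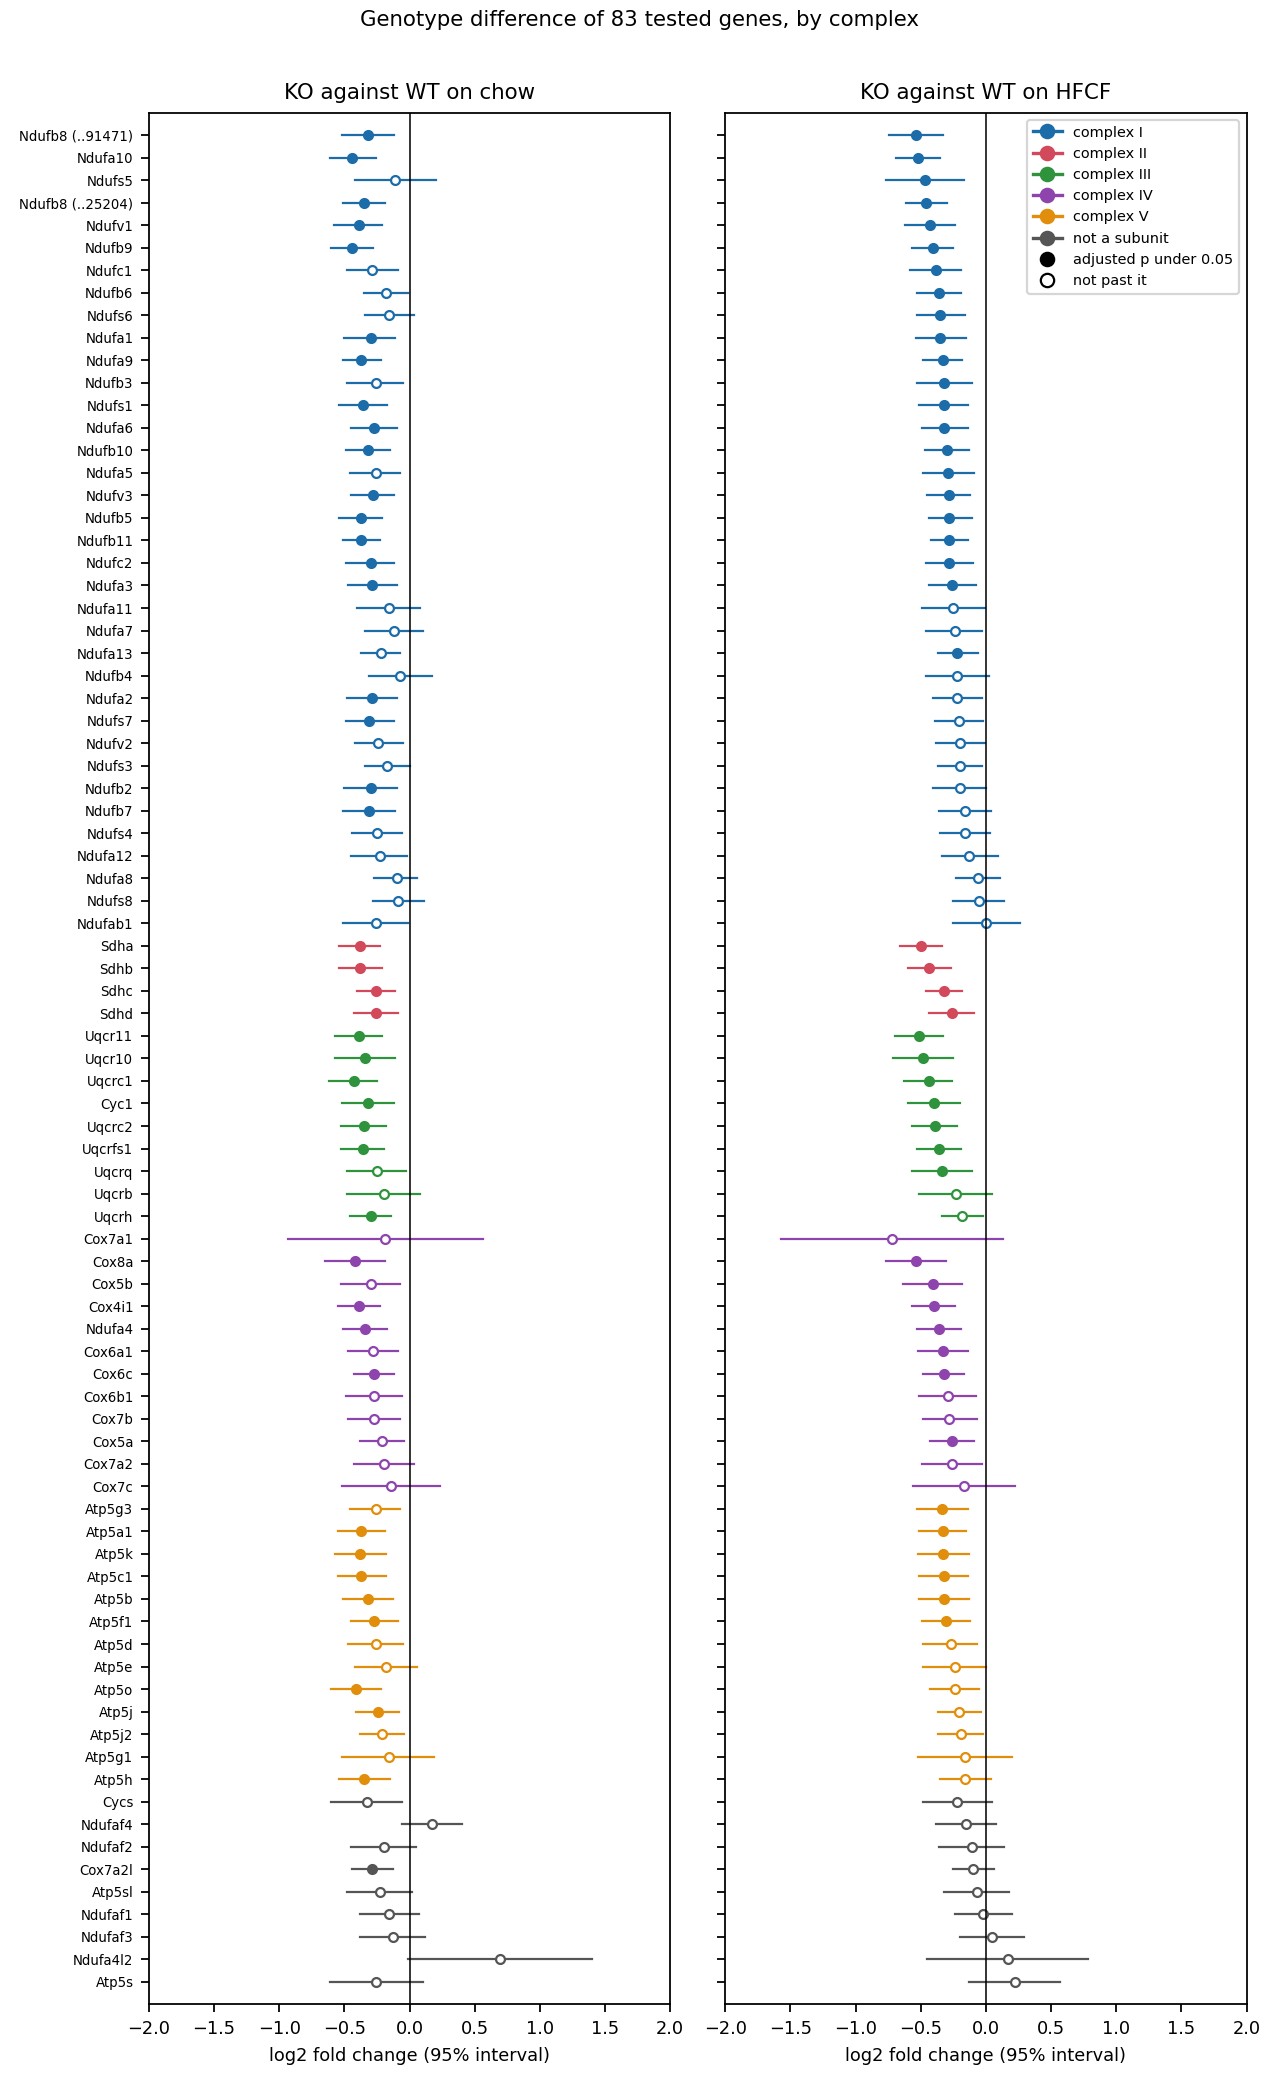
Log2 fold change of KO against WT with its 95% interval (horizontal axes) for 83 of the 84 tested members, by complex and then by value on HFCF, on chow (left) and HFCF (right); filled points have an edgeR adjusted p under 0.05. Filled points number 43 and 46, all to the left of 0, and of the 9 members that are not subunits 1 is filled on chow and 0 on HFCF.

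Of the 9 members that are not subunits, 1 was called lower on chow and 0 on HFCF, with median log2 fold changes of -0.20 and -0.07. The difference from the subunits was not tested. The 1 was Cox7a2l, which joins complexes III and IV into supercomplexes, at -0.29 ± 0.07 on chow (edgeR adjusted p = 0.0161) and -0.10 ± 0.07 with HFCF (edgeR adjusted p = 0.391). The chow call was lost without KO chow replicate 1 (0.067) or WT chow replicate 3 (0.0788). The assembly factors Ndufaf1 to Ndufaf4 ranged from -0.20 to 0.17 on chow and from -0.15 to 0.05 on HFCF. Without KO chow replicate 2, Ndufaf4 was called higher on chow (0.30, edgeR adjusted p = 0.0389). Cycs, the electron carrier between complexes III and IV, gave -0.33 ± 0.12 and -0.22 ± 0.12 and was not called. Atp5s and Atp5sl were not called either. When the subunits alone were counted, a choice made after seeing the data, 43 of 75 fell on chow and 47 of 75 on HFCF, with medians of -0.29 and -0.31.

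The share of members called was higher among abundant genes. Of the 21 members that averaged 150 CPM or more, 17 fell on chow and 20 on HFCF, with median log2 fold changes of -0.36 and -0.35 and a median standard error of 0.08. Of the 37 at 50 to 150 CPM, 24 and 19 fell, with medians of -0.29 and -0.26. Of the 26 under 50 CPM, 3 and 8 fell, with medians of -0.19 and -0.21 and a median standard error of 0.11. The widest differences were among members of low count that were not called, and reached 0.69 on chow (Ndufa4l2) and -0.72 on HFCF (Cox7a1).

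Levels can be compared between genes only per length, so the deposited FPKM were used for that. They depend on the deposited gene lengths, which were not checked. The 2 overlapping Ndufb8 rows read 158 FPKM at 225 bases and 37.3 FPKM at 3146 bases in WT chow livers. Low FPKM of rows with long deposited lengths, such as Ndufab1 (6883 bases) and Atp5g1 (4908 bases), and the medians by complex are uncertain for this reason. In WT chow livers Cox4i1 led at 630 ± 21.4 FPKM, followed by Ndufa4 at 549 ± 26.2, Atp5a1 at 431 ± 16.9, Cox6b1 at 411 ± 18.4, Ndufb9 at 364 ± 20.2 and Atp5b at 361 ± 22.9 FPKM. Of these neighbours, the ranges over livers overlapped between Atp5a1 and Cox6b1 and between Ndufb9 and Atp5b. The same 6 genes led in KO HFCF livers, with only Ndufb9 and Atp5b exchanged. The median was 133 FPKM for complex III and 163 for complex IV, against 51.8 for complex I, whose many subunits ran from 364 FPKM downwards. At the bottom stood Cycs at 2.81 ± 0.22, Ndufab1 at 2.00 ± 0.164, Atp5g1 at 1.81 ± 0.249, Atp5l at 0.772 ± 0.204, Ndufa4l2 at 0.509 ± 0.0772 and Cox6b2 at 0.462 ± 0.477 FPKM.

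Low values for widely expressed genes such as Cycs and Atp5l are uncertain as levels. Of the 86 members, 19 have an annotated pseudogene that matches the transcript at 95% identity or more over at least 200 bases, Atp5l with 8 such copies. Reads of such genes may be split or dropped, depending on counting rules that are not given in the sources used here. The median was 38.7 FPKM with a copy and 77.3 FPKM without. Leaving out the members with a copy, which was decided after seeing the data, 37 of 66 fell on chow and 40 on HFCF, with medians of -0.29 and -0.30.

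The other genes of the pathway were described by lists. For these and the lists below, the shares of all tested genes were 5.82% lower and 9.72% higher on chow. On HFCF they were 8.52% lower and 10.6% higher. Of 28 tested assembly factors outside the symbol rule, 2 fell on chow (7.14%) and 4 on HFCF (14.3%), with 0 higher and medians of -0.13 and -0.16. The share on chow was near that of all tested genes. Surf1, needed for complex IV assembly, gave -0.42 ± 0.07 on chow (edgeR adjusted p = 0.00181), and Sco2, which delivers copper to complex IV, -0.83 ± 0.16 on HFCF (edgeR adjusted p = 0.00339). Foxred1, a complex I assembly factor, was called on both. Of 13 TCA cycle enzymes, 5 fell on chow, and 6 fell and 1 rose on HFCF. Idh3b, a subunit of the NAD-dependent isocitrate dehydrogenase, gave -0.43 ± 0.08 on each diet, while fumarase, Fh1, rose on HFCF (0.49 ± 0.12, edgeR adjusted p = 0.0128). Of 8 dehydrogenases that feed ubiquinone, 3 fell on each diet, Prodh and Sqrdl on both. Of 13 genes of ubiquinone synthesis, 2 and 4 fell, with Adck3 at -0.63 ± 0.12 and -0.75 ± 0.12 and Coq5 at -0.37 ± 0.07 and -0.48 ± 0.07. Of 8 carriers, porins and uncoupling genes, the porin Vdac1 fell and the uncoupling protein Ucp2 rose on both diets. Several of these calls were lost when 1 library was omitted, which also leaves fewer livers to test. On chow, some omission of 1 library lost the fall of 1 of 2 assembly factors, 2 of 5 TCA enzymes and 2 of 3 dehydrogenases. On HFCF this held for 1 of 4, 4 of 6 and 2 of 3, and for 2 of 4 ubiquinone synthesis genes. The edgeR adjusted p then reached up to 0.128 on chow and 0.17 on HFCF. On chow Foxred1 and Vdac1 were lost without any 1 of WT chow replicates 1 to 3 and KO chow replicates 1 and 2 (edgeR adjusted p up to 0.111 and 0.122), and Sqrdl without WT or KO chow replicate 1 or 3 (up to 0.0788). On HFCF Fh1 was lost without WT HFCF replicate 2 (0.0537) and Prodh without that library or KO HFCF replicate 1 (up to 0.0695). Ucp2 was lost on HFCF in 8 of the 12 omissions, among them each KO HFCF library and WT HFCF replicates 2 and 3 (up to 0.177). It was also lost with RLE scaling, with no filter on low counts, with length-trend offsets and in a fit of only the compared groups.

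Mitochondrial DNA encodes further subunits of complexes I, III, IV and V. Of 8 such genes in the table, 3 rose and 0 fell on each diet: mt-Nd2, mt-Nd4 and mt-Nd5, all subunits of complex I. The gene mt-Nd5 stood at 428 ± 38.8 CPM in WT and 574 ± 86.4 CPM in KO on chow, and at 397 ± 22.3 against 527 ± 22.6 CPM on HFCF. Its log2 fold changes were 0.42 ± 0.11 (edgeR adjusted p = 0.018) and 0.41 ± 0.11 (edgeR adjusted p = 0.0167). On chow all 3 calls were lost without WT chow replicate 1 or 3 or KO chow replicate 2, and those of mt-Nd2 and mt-Nd4 also without KO chow replicate 1 (edgeR adjusted p up to 0.121). On HFCF all 3 were lost without WT HFCF replicate 3 or KO HFCF replicate 2 or 3, and those of mt-Nd4 and mt-Nd5 also without WT HFCF replicate 2 (up to 0.127). The direction stayed up in each of these omissions. The complex IV gene mt-Co1 read -0.19 ± 0.09 and -0.20 ± 0.09 and was not called. The summed level of the 8 overlapped between genotypes on both diets (11600 to 11900 CPM in WT and 9980 to 12500 CPM in KO on chow, 10400 to 12300 and 10200 to 11200 CPM on HFCF).

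Of 18 tested regulators of mitochondrial genes, 1 rose and 3 fell on chow, and 0 rose and 3 fell on HFCF. Esrrg, an estrogen-related receptor, went from 5.29 ± 0.684 to 2.46 ± 0.0868 CPM on chow and from 6.1 ± 0.78 to 2.57 ± 0.571 CPM on HFCF. Its log2 fold changes were -1.10 ± 0.18 (edgeR adjusted p = 0.00158) and -1.23 ± 0.18 (edgeR adjusted p = 0.000365). Tfam, which packages and helps transcribe mitochondrial DNA, fell on both diets (-0.28 ± 0.08 and -0.25 ± 0.08). Its chow call was lost without any 1 chow library other than WT replicate 2 (edgeR adjusted p up to 0.0809), and its HFCF call without WT HFCF replicate 1 or 3 or KO HFCF replicate 2 or 3 (up to 0.109). Gabpa, a subunit of GABP, fell on chow (-0.34 ± 0.07), and Sirt3, a mitochondrial deacetylase, on HFCF (-0.41 ± 0.10). Pprc1, a coactivator related to PGC-1, rose on chow (0.60 ± 0.15) but was not called without WT or KO chow replicate 3 (edgeR adjusted p up to 0.0721). Ppargc1a, which encodes PGC-1 alpha, was not called (0.36 ± 0.24 and 0.44 ± 0.24), and neither were Nrf1, Esrra and Yy1. Of 70 cytosolic ribosomal protein genes, another set of short and abundant transcripts, 0 were called on chow and 2 rose on HFCF, with medians of -0.12 and 0.09. The 2 were Rpl3, lost without WT HFCF replicate 1 or 3 or KO HFCF replicate 1 or 3 (up to 0.139), and Rpl13a, lost without KO HFCF replicate 3 (0.0619).

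**Figure D5:**
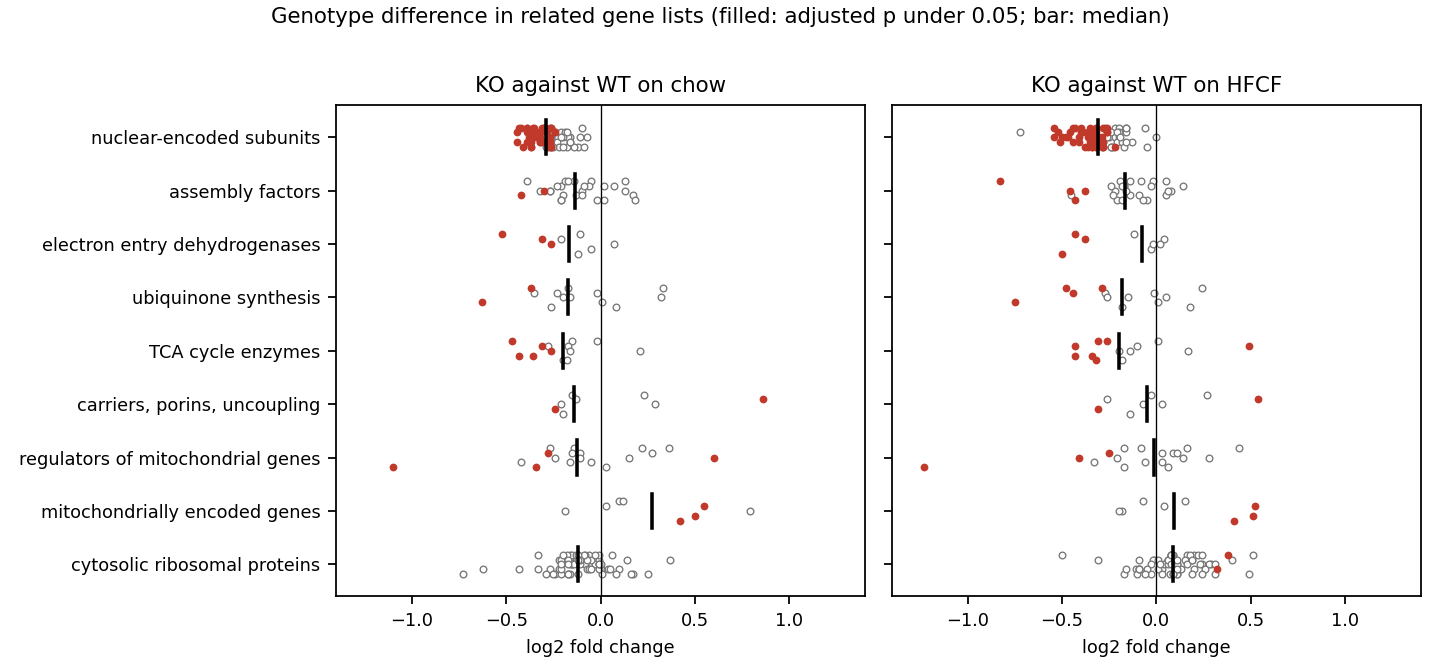
Log2 fold change of KO against WT (horizontal axes) on chow (left) and HFCF (right) for the tested nuclear-encoded subunits and 8 related gene lists, 1 point per gene, filled red where the edgeR adjusted p is under 0.05, with the median as a bar. The subunits cluster to the left of 0 (medians -0.29 and -0.31), while the filled points of the mitochondrially encoded genes are to the right of 0 on both diets.

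In whole liver, fewer cells of a type and less RNA per cell cannot be told apart, so markers of the cell types are given beside these differences. Of 14 hepatocyte markers, 4 fell and 0 rose on chow, and 2 fell and 3 rose on HFCF. The falls of Apoa2 and Ttr on HFCF were kept whichever library was omitted. Each of the 4 falls on chow was lost in some omissions (Serpina1b in 6 of 12, Cps1 in 5, Ass1 in 2 and Apoa2 in 1, edgeR adjusted p up to 0.124), as were the 3 rises on HFCF (Fgb in 5, Serpina1a in 4 and Pck1 in 3, up to 0.129). Their summed level was 75600 to 78000 CPM in WT and 66300 to 78600 CPM in KO on chow, and 61300 to 67600 against 68500 to 71700 CPM on HFCF. The sums of the genotypes overlapped on chow, and on HFCF those of KO livers were the higher. Taken 1 by 1, 12 of the 14 stood below 0 on chow, with a median log2 fold change of -0.21. On HFCF 4 stood below and 10 above 0, with a median of 0.25. Between diets, 7 of the 14 fell with HFCF in WT livers (median log2 fold change -0.40) and 0 were called in KO livers. Of all tested genes, 5.9% were called lower with HFCF in WT and 1.18% in KO.

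Of 13 macrophage and monocyte markers, 9 rose on chow and 7 on HFCF, and 0 fell. On chow 5 of the 9 were kept in every omission of 1 library, while Clec4f and Vsig4 were lost in 10 of 12 each, Lyz2 in 7 and Csf1r in 3 (edgeR adjusted p up to 0.163). On HFCF Itgax was lost without WT HFCF replicate 2 (0.0561). Their sum went from 262 to 303 CPM in WT to 447 to 476 CPM in KO on chow, and from 238 to 483 to 532 to 588 CPM on HFCF. Of 9 lymphocyte markers, 7 and 5 rose, mainly Igkc by level, with sums of 5.88 to 7.72 against 275 to 351 CPM on chow and 5.22 to 7.02 against 137 to 164 CPM on HFCF. Of these calls, 4 of 7 on chow and 2 of 5 on HFCF were kept in every omission, those of Igkc and Cd4 on both diets. Of 3 neutrophil markers, 1 rose on each diet, with sums of at most 6.69 CPM. Of 10 stellate cell and fibroblast markers, 5 rose on chow (540 to 660 against 795 to 810 CPM) and 1 on HFCF (738 to 892 against 673 to 903 CPM). The 5 on chow were kept in every omission, and the 1 on HFCF, Lum, was lost in 5 of 12 (edgeR adjusted p up to 0.125). Of 9 endothelial markers, 1 rose on chow (540 to 568 against 602 to 643 CPM), and 1 rose and 1 fell on HFCF (542 to 636 against 554 to 609 CPM). The rise on chow, Eng, was lost without WT chow replicate 3 (0.0519), and the fall on HFCF, Lyve1, in 7 of 12 omissions and 4 other settings (edgeR adjusted p up to 0.185). Of 5 cholangiocyte markers, 1 rose on chow and 0 were called on HFCF. The 1, Spp1, was lost without WT chow replicate 1 or KO chow replicate 2 (up to 0.0633).

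Of 7 listed adipocyte markers only 2 were in the count table, so they describe adipocytes poorly. They summed to 128 to 229 CPM in WT HFCF livers and to at most 12.3 CPM in the others, through Cfd. On HFCF Cfd was called lower in KO than in WT, with a log2 fold change of -7.65. Of 8 listed muscle markers only 2 were in the count table, and these summed to at most 7.31 CPM and were not called. Of 4 erythroid markers, Alas2 fell on both diets. The part of these other cells in the lower level of the members was not tested.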

How the data were processed

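RNA was sequenced from 12 livers after removal of ribosomal RNA with a stranded kit, per the labels' protocols. The authors deposited whole-number read counts per gene and library, per the file headers, and FPKM values with the gene length in bases behind them. Per the submitters' processing notes, reads were placed on mm10. Which aligner, counting tool, strand setting and annotation were used is not given in the sources used here. Groups came from the labels, and the mice were separate animals.

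Libraries held 13967116 to 18324134 counts. Within groups, pairs of libraries differed by more than sampling noise (chi-square per degree of freedom 11.21 to 34.42), so none was treated as a repeat. The pairs with WT HFCF replicate 1 gave the highest values, 32.17 and 34.42, and the other pair of that group gave 11.21. From the counts, edgeR 4.0.16 (filterByExpr with a minimum count of 10, TMM, glmQLFit and glmQLFTest, 4 group means, R 4.3.3) tested 14736 genes and removed 1110. The common biological coefficient of variation was 0.119. FPKM were used only to compare levels between genes. Pseudogene copies were found with blastn 2.17.0 among GENCODE transcripts, and gene coordinates are those of the deposited table. The edgeR fit was also run on simulated data, but with falls larger than the members' median, so it did not cover falls of that size.

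The members and the 18 gene lists were chosen with earlier results of these data known. The rule named, per contrast, up to 25 called members by lowest adjusted p, or up to 10 by size where fewer than 10 were called, and fixed isoform pairs and core subunits; other members are named to account for them. One member entered every count and sum but is not reported here by itself. Alternatives were scaling by RLE or upper quartile, omitting or tightening the filter, DESeq2 1.42.0, limma voom 3.58.1, the replicate number as a block, length-trend offsets, a fit of only the 2 groups compared, and dropping 1 library at a time.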

Additional observations from a re-analysis of the deposited data

How the results depend on the processing

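The members' median log2 fold change between genotypes stayed below 0 under each alternative run, from -0.33 to -0.24 on chow and from -0.36 to -0.25 on HFCF. The number called lower was 33 to 49 on chow and 38 to 50 on HFCF under other scalings, filters, tools and offsets. Leaving out 1 library gave 16 to 54 and 28 to 55, and 0 to 1 called higher on chow. For HFCF against chow in WT, DESeq2 called 1 member higher, and leaving out 1 library gave 0 to 3. For the other diet comparison and the interaction, 0 members were called under each alternative. The same call was kept under every alternative by 15 of 44 members on chow and by 24 of 47 on HFCF. Those kept on both diets included Cox4i1, Ndufa10, Ndufa9, Ndufb11, Ndufb8 (ENSMUSG00000025204), Ndufb9, Ndufv1, Sdha, Sdhb, Uqcr11, Uqcrc1 and Uqcrfs1. The causes were not tested.

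The replicate numbers gave no clear pairing in correlations of deviations from the group means. Same-numbered libraries had correlations of -0.148 to 0.167, and the others of -0.144 to 0.152. Of 12 libraries, 7 correlated best with their own number, and whether this reflects a weak pairing was not tested. With the replicate block 40 members fell on chow and 41 on HFCF. With 3 livers a group, differences near the median standard error of 0.09 were not detectable for single genes.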
